A study of Homo sapiens with 8 samples.

Results

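The genes followed here are 10 genes of blood cell lineages, examined in HepG2, a human hepatoblastoma line and therefore not a blood cell. They were chosen by name, with earlier results of these data known: CD3D, CD3E and CD3G, CD4, CD8A and CD8B, LCK, RUNX1, RUNX3 and SPI1. They are 10 of 20033 protein-coding genes (59661 annotated genes of all kinds) in the RefSeq annotation of GRCh38.p14, and they lie in 7 loci, since the CD3 genes and the CD8 genes are neighbours. Each gene span, alone and with 50 kb added on each side (its window), was set against macroH2A1 domains and against regions tested for a change in macroH2A1. The labels call the cells HepG2, and no expression was measured, so that these genes are silent in HepG2 was not tested.

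The study asks how ANP32B, a histone chaperone, affects the presence of the histone variant macroH2A in chromatin. HepG2 cells received siANP32B, an siRNA against ANP32B, or siControl, a non-targeting siRNA, and 3 days later chromatin was profiled by CUT&RUN, in which an antibody guides a nuclease to its target and the freed fragments are sequenced. Of 8 libraries, 4 were made with anti-macroH2A1 (siANP32B replicates 1 and 2, and siControl replicates 1 and 2), each with its own list of broad enriched domains, and 4 with IgG, which were not analysed here. The authors also compared siANP32B with siControl region by region in a deposited table. The number of reads behind each library and the degree of knockdown are unknown. Replicates are not said to be separate cultures, so the spread between them may be technical, and with 2 libraries against 2 an exact permutation test cannot give a p below 0.333.

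CD3D, CD3E and CD3G encode the delta, epsilon and gamma chains that carry the signal of the T cell receptor. CD4 and CD8 are the coreceptors that separate helper from cytotoxic T cells, and LCK is the kinase bound to their tails that starts the signal. RUNX1, RUNX3 and SPI1 (which encodes PU.1, a factor of the ETS family) are transcription factors: RUNX1 is needed to form blood stem cells, RUNX3 silences CD4 in cytotoxic T cells, and PU.1 drives myeloid and B cell fates. RUNX1, RUNX3 and LCK each have an outer and an internal start, and in RUNX1 and RUNX3 the internal start lies in a CpG island. macroH2A1, an H2A variant with a large added domain, is known from broad stretches of mostly inactive chromatin.

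Sequence just before a gene start, 250 bases from the RefSeq GRCh38.p14 promoter table, was at hand for 5 of the 10 genes (CD3D, CD8A, LCK, RUNX1 and RUNX3). These stretches differ in base composition and in whether they lay in a domain, which bears on the domains described next. Capitals mark the core letters bound by RUNX factors (TGTGGT or TGCGGT, either strand) and by ETS factors (GGAAGT, either strand). All are written 5′ to 3′ on the strand of the gene. CD8A has 4 entries in the table, of which the outermost is shown.
RUNX1 internal start, chr21:34888700-34888949, minus strand: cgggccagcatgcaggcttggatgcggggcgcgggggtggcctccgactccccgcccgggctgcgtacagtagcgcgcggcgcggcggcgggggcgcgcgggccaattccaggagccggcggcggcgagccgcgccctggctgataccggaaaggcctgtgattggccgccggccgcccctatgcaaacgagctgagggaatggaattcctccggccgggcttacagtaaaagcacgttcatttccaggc
RUNX3 internal start, chr1:24930277-24930526, minus strand: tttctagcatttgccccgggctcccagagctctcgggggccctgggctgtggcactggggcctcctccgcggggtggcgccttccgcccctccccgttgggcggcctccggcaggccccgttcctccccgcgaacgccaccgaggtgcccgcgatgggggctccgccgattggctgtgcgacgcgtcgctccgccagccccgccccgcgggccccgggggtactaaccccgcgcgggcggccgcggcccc
RUNX3 outer start, chr1:24965011-24965260, minus strand: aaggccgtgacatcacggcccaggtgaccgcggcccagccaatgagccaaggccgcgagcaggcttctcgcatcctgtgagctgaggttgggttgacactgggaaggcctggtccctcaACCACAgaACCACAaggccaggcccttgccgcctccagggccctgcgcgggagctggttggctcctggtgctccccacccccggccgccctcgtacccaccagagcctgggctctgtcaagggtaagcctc
CD8A outer start, chr2:86808397-86808646, minus strand: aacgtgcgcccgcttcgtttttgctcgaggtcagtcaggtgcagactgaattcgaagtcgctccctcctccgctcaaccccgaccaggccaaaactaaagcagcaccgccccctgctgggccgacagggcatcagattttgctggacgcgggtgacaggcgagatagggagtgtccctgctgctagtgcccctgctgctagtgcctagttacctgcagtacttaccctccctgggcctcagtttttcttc
CD3D start, chr11:118342706-118342955, minus strand: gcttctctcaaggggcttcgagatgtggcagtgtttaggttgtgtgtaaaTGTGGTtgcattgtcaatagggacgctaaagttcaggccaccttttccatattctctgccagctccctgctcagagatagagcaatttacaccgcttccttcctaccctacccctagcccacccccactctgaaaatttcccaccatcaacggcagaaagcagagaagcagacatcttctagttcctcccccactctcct
LCK outer start, chr1:32251015-32251264, plus strand: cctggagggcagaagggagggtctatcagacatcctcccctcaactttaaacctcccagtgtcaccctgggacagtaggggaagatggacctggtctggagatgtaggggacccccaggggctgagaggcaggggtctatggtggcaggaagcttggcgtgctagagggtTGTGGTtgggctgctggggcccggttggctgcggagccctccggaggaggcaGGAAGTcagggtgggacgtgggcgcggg
LCK internal start, chr1:32273871-32274120, plus strand: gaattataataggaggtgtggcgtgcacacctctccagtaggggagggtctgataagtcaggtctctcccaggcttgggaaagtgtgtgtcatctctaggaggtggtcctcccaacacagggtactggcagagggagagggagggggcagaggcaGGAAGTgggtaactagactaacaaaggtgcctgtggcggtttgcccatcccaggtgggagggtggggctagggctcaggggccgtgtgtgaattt
The RUNX letters occurred once before the CD3D start and the outer LCK start and 2 times before the outer RUNX3 start, and the ETS letters once before each LCK start. They did not occur in the CD8A stretch shown, whereas 1 of the other CD8A entries (chr2:86791681-86791930) held 1 RUNX core. Over 22198 promoters of coding genes, 15.7% held a RUNX core and 20.5% an ETS core within the same length, so these matches are common, and a match is not a bound site.

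These starts ran from CpG-poor to CpG-rich. The ratio of observed to expected CpG was 1.02 before the internal RUNX1 start and 0.868 before the internal RUNX3 start, against a median of 0.711 over all 22198 promoters. It was 0.647 for the outer CD8A start (0.584, 0.235 and 0.730 for the other CD8A entries), 0.459 for the outer RUNX3 start, 0.298 and 0.165 for the outer and internal LCK starts and 0.267 for CD3D. Of these 7 stretches, those of CD3D, LCK and RUNX3 lay wholly in domains of the 4 libraries, whether rich or poor in CpG. The internal RUNX1 stretch was outside domains in siANP32B replicate 1 and wholly inside in siANP32B replicate 2 and both siControl libraries. The outer CD8A stretch was inside in both siANP32B libraries and siControl replicate 2 and outside in siControl replicate 1. The innermost CD8A entries (chr2:86790914-86791163 and chr2:86791681-86791930) were inside a domain in siANP32B replicate 1 only. Over all promoters with a ratio below 0.25, the share in domains was 35.4% and 33.1% in siANP32B and 31.5% and 27.6% in siControl libraries. From 0.75 upward it was 28.5% and 23.7% in siANP32B and 25.4% and 17.5% in siControl libraries.

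Most of the 10 genes lay inside macroH2A1 domains in HepG2 cells of both groups. At least 50% of the gene body was in a domain of both siANP32B libraries for 9 of 10 genes, against a background of 17.2% of coding genes, and of both siControl libraries likewise for 9 of 10, against 13.7%. CD8A was the exception in each group. Because the genes were chosen with earlier results of these data known, these shares describe the chosen genes and were not tested. Without domains scored below the median of the 4 lists together, the counts were 5 in siANP32B and 8 in siControl libraries. With the 5553 best-scored domains of each library, they were 8 in siANP32B and 8 in siControl libraries. CD3D, CD3E, CD3G, CD8B, LCK and SPI1 were covered over 100% of the gene body in the 4 libraries. The median of the 10 genes was 100% of the gene body in each library, whereas the median coding gene was covered over 0% and the mean coding gene over 25.2% and 21.5% in siANP32B and 20.9% and 17.4% in siControl libraries. With flanks, the median of the 10 windows was 64.6% and 59.5% in siANP32B and 63.7% and 59.1% in siControl libraries. Over all coding genes the median window was covered over 21.4% and 17.8% in siANP32B and 19.4% and 13.8% in siControl libraries.

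**Figure D1:**
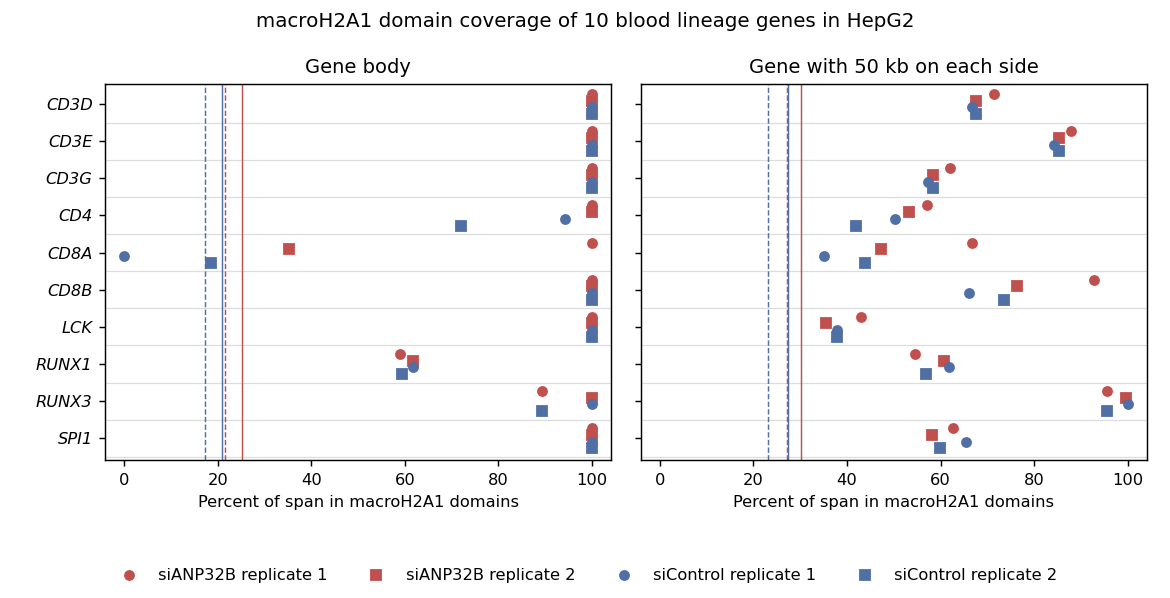
Percent of each gene body (left) and of each gene with 50 kb on each side (right) that lay in macroH2A1 domains, with 1 point per library. Vertical lines give the mean over all protein-coding genes in each library (solid for replicate 1, dashed for replicate 2); each of the 10 blood lineage genes lies right of the line of its own library, except for the CD8A body in siControl replicate 1, which was covered over 0%.

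The CD3 genes shared a domain with nearly the same borders in the 4 libraries. CD3E (chr11:118304730-118316173), CD3D (chr11:118338954-118342705) and CD3G (chr11:118344344-118355161) lay side by side inside domains of 98 and 95 kb in siANP32B and 94 and 95 kb in siControl libraries. The left border fell within 1 kb over the 4 libraries, at 0.704 and 0.296 kb from the end of MPZL2, an adhesion gene, in siANP32B and 0.296 kb in both siControl libraries. The right border was 3.40 and 0.600 kb from the start of UBE4A, a ubiquitin ligase gene, in siANP32B, and 1.60 and 0.600 kb in siControl libraries. Thus the domain filled the gap between these neighbours, which were covered over at most 2.73% (MPZL2) and 8.59% (UBE4A) of their bodies. The caller's score put the CD3 domains high in their own lists, at percentiles 99.0 and 98.9 in siANP32B and 97.8 and 95.7 in siControl libraries, the highest ranks among the 7 loci in each library.

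Window coverage at the CD3 genes differed little between groups. For CD3E it was 87.9% and 85.2% in siANP32B and 84.3% and 85.2% in siControl libraries, for CD3D 71.4% and 67.5% against 66.6% and 67.5%, and for CD3G 62.0% and 58.3% against 57.4% and 58.3%. siANP32B replicate 2 and siControl replicate 2 had the same value at each gene, and the differences of 1.79, 2.41 and 2.26 points came from the replicates numbered 1 (two-sided exact permutation p = 0.667 each, n = 2 libraries per group). The level within the domain was called lower: in the authors' deposited table, 1 region of 76 kb from 118287001 to 118363000, over the 3 genes, had a log2 fold of -0.55 (FDR 0.0464). Of its 53 windows in the authors' deposited table, 9 were down and 1 was up. This fold stands at the median of all regions (-0.54), and it does not pass a false discovery rate of 0.01.

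CD4 sat in a domain that reached farther to the right in siANP32B cells. The gene (chr12:6789528-6820799, 31.3 kb) was covered over 100% of its body in both siANP32B libraries and over 94.2% and 71.9% in siControl libraries, or 100% ± 0 against 83.1% ± 15.8 (SD, n = 2 each). The groups did not overlap, the difference was 16.9 points (5.75 without siControl replicate 2) and the two-sided exact permutation p was 0.333. The right border lay inside GPR162, an orphan receptor gene next to CD4, in both siANP32B libraries, and inside CD4, 1.80 and 8.80 kb before its right end, in siControl libraries. GPR162 was thereby covered over 74.6% and 21.1% in siANP32B and 0% in both siControl libraries. On the left, the domains held LAG3, a T cell inhibitory receptor that binds the same class of ligand as CD4, and PTMS, both covered over 100% in the 4 libraries, and ended at MLF2, which was covered over 41.6% and 2.74% in siANP32B and 2.74% and 0% in siControl libraries.

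With flanks, CD4 coverage was 57.1% and 53.3% in siANP32B and 50.3% and 41.9% in siControl libraries, or 55.2% ± 2.69 against 46.1% ± 5.93 (SD, n = 2 each). The difference of 9.14 points had a two-sided exact permutation p of 0.333, and without siControl replicate 2 it was 4.95 points. CD4 was the only one of the 9 genes with a tested region where no region was called. In the authors' deposited table, the region inside the gene (6792001 to 6804000, 12 kb) had a log2 fold of -0.35 (FDR 0.316), and the one to its left (6752001 to 6786000, 34 kb) -0.27 (FDR 0.325). None of the 3 and 18 windows of these regions was counted as up or down in the authors' deposited table. These were the folds nearest to 0 among the 10 regions at the loci.

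CD8A and CD8B lie next to each other, and the left edge of their domain lay at or near CD8A, inside the gene in the replicates numbered 2, to its left in siANP32B replicate 1 and to its right in siControl replicate 1. CD8B (chr2:86815369-86861886, 46.5 kb) was covered over 100% of its body in each library. CD8A (chr2:86784605-86808396, 23.8 kb) was covered over 100% and 35.3% in siANP32B and 0% and 18.5% in siControl libraries, or 67.6% ± 45.8 against 9.24% ± 13.1 (SD, n = 2 each). The groups did not overlap, but the gap between the siANP32B replicates was wider than the difference of 58.4 points (two-sided exact permutation p = 0.333). The difference was 26.1 points without siANP32B replicate 1 and 90.8 points without siANP32B replicate 2.

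Both borders of the CD8 domain lay farther out in siANP32B cells. The domain measured 163 and 129 kb in siANP32B and 111 and 115 kb in siControl libraries. Its left border lay at 86776001 and 86800001 in siANP32B and at 86815001 and 86804001 in siControl libraries. Its right border lay at 86939000 and 86929000 in siANP32B and at 86926000 and 86919000 in siControl libraries, so the groups did not overlap at either side, though by only a few kb at the nearest libraries. In siControl replicate 1 the left border stood 0.368 kb from an end of CD8B, in the gap between the genes. In siANP32B replicate 1 it stood 2.04 kb inside RMND5A, a ubiquitin ligase subunit gene on the other side of CD8A. Window coverage was 66.6% and 47.2% for CD8A in siANP32B and 35.1% and 43.9% in siControl libraries, a difference of 17.4 points. For CD8B it was 92.7% and 76.4% in siANP32B and 66.1% and 73.6% in siControl libraries, a difference of 14.7 points, and neither pair of groups overlapped (two-sided exact permutation p = 0.333 each, n = 2 libraries per group). Without siANP32B replicate 1 the differences were 7.67 points for CD8A and 6.48 for CD8B, and without siANP32B replicate 2 they were 27.1 and 22.9. Where domains scored below the median of the 4 lists together were left out, they turned to -15.9 points for CD8A and -31.7 for CD8B, and the body differences were 8.41 points for CD8A and -50.0 for CD8B. The CD8 domain of siANP32B replicate 1, with a score of 80.8, fell just under this limit of 81.1. With the 5553 best-scored domains of each library, the window differences stayed at 17.4 and 14.7 points. The body differences were then 58.4 points for CD8A and 0 for CD8B.

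Wider domain and lower level went together at CD8B. A 69 kb region from 86841001 to 86910000, with 20.9 kb in CD8B, had a log2 fold of -0.67 (FDR 0.00791) in the authors' deposited table, which leaves 62.9% of the siControl level in its representative window. Of its 32 windows, 4 were down and none up in the authors' deposited table. No tested region overlapped the CD8A body, where the border moved. Chromosome 2 also carries CD8B2 (chr2:106487364-106544297), a near copy of CD8B, covered over 100% of its body in both siANP32B libraries and 79.6% and 100% in siControl libraries; reads of the copies could be placed at either, so values at CD8B are uncertain to that extent.

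LCK had a short domain that covered the gene in each library. LCK (chr1:32251265-32286165, 34.9 kb) lay in domains of 58 and 48 kb in siANP32B and of 51 kb in both siControl libraries. The right border was 0.0830 kb from the start of HDAC1, a histone deacetylase gene, in siANP32B replicate 2 and both siControl libraries, and 2.83 kb past LCK in siANP32B replicate 1. HDAC1 itself was covered over 0% in the 4 libraries. To the left, FAM167B was covered over 100% in the 4 libraries, and EIF3I, a translation factor gene, over 37.6% and 0% in siANP32B and 0% in both siControl libraries.

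The LCK window was covered over 43.0% and 35.6% in siANP32B and 37.8% in both siControl libraries. These values overlapped (difference 1.48 points, two-sided exact permutation p = 1.00, n = 2 libraries per group), and the difference was -2.22 points without siANP32B replicate 1, -5.22 points with flanks of 10 kb, and -16.3 points (-50.0 for the gene body) without domains scored below the median of the 4 lists together. With the 5553 best-scored domains of each library it stayed at 1.48 points (0 for the gene body). The level fell: in the authors' deposited table, a 16 kb region from 32255001 to 32271000, inside the gene and between its outer and internal starts, had a log2 fold of -0.72 (FDR 0.00253). All 7 windows of this region were down in the authors' deposited table.

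**Figure D2:**
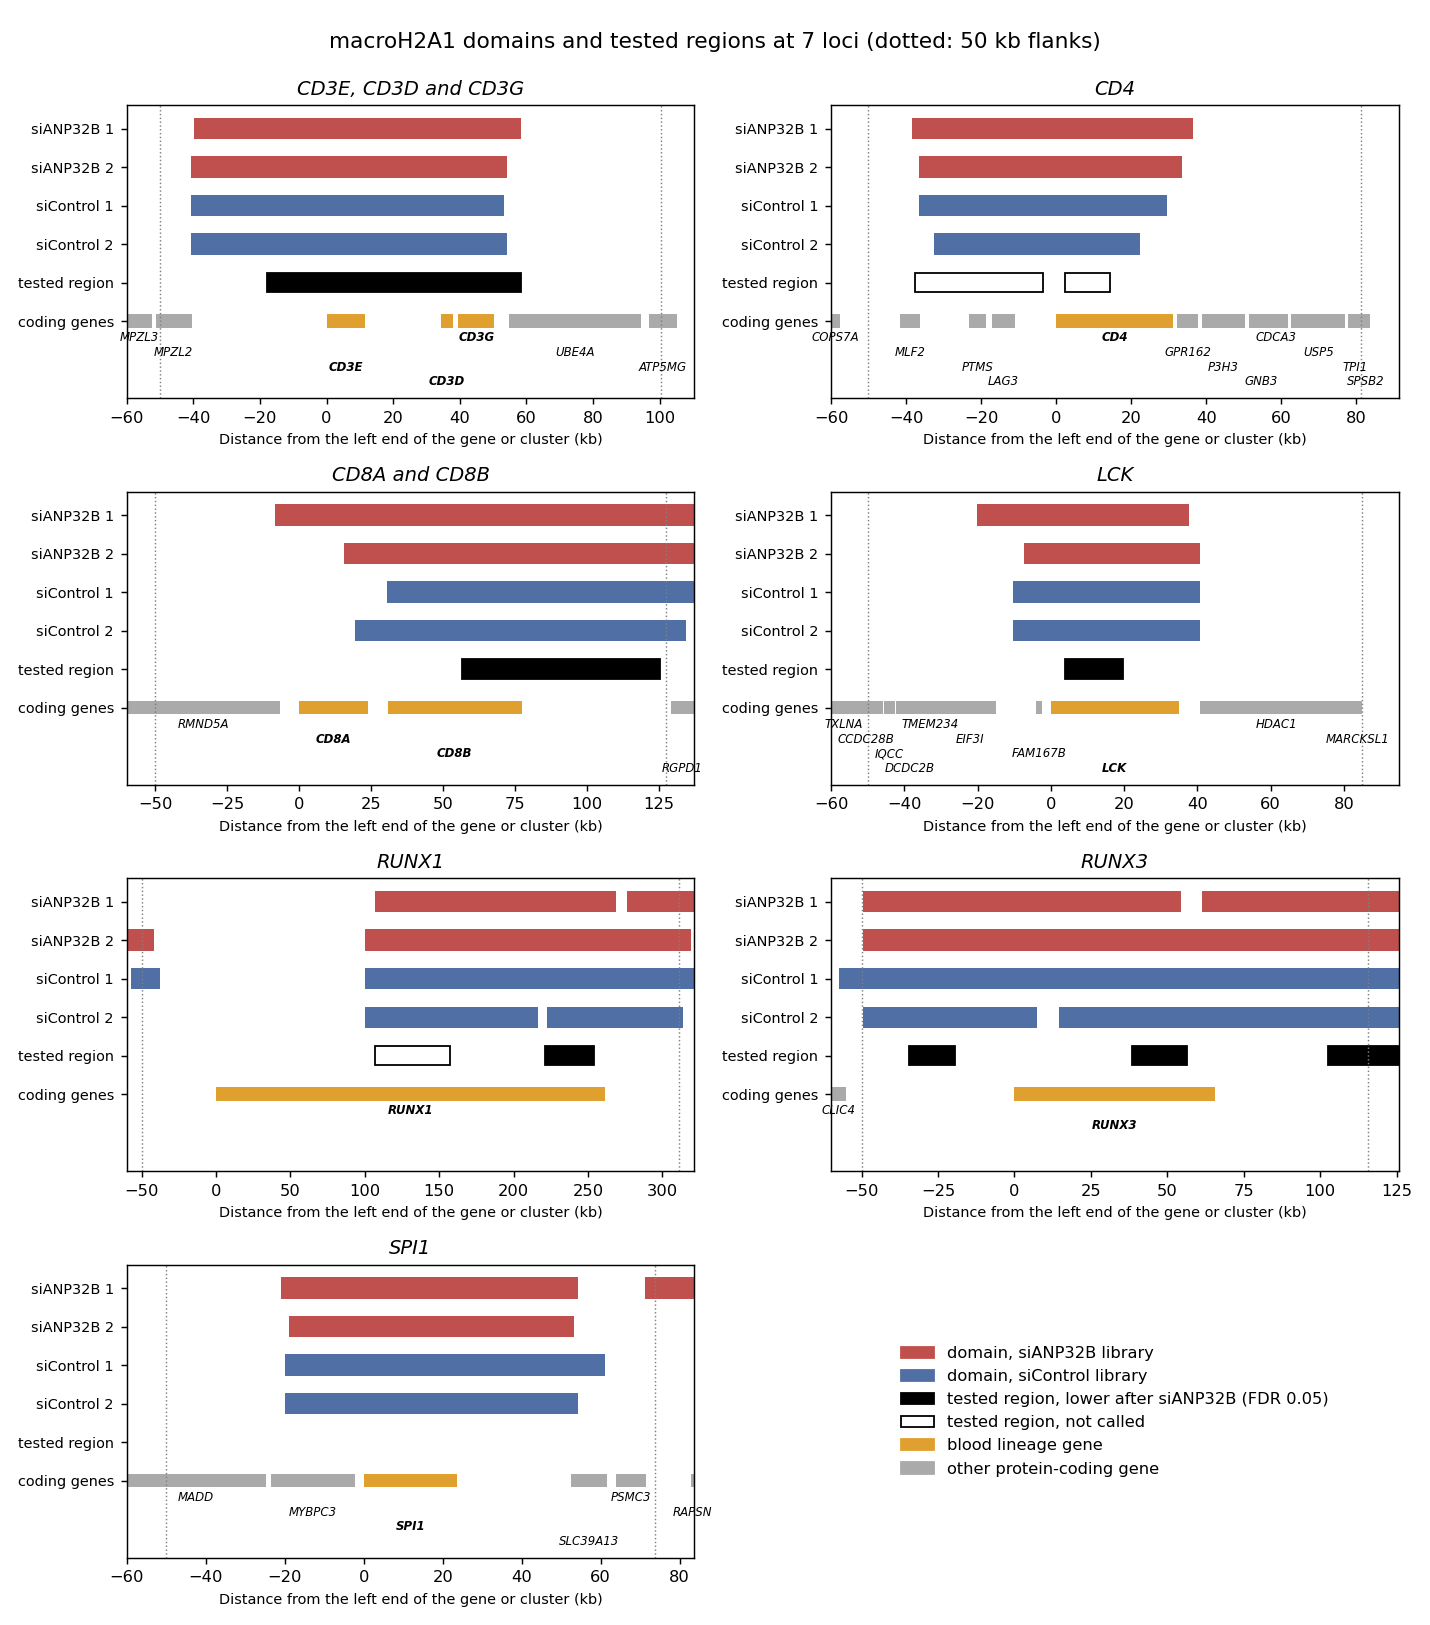
Maps of the 7 loci with the domains of the 4 libraries, the tested regions and the protein-coding genes, in kb from the left end of the gene or cluster, with dotted lines at 50 kb on each side. The CD3 and SPI1 domains keep their place over the 4 libraries, the CD4 and CD8 domains reach farther in siANP32B, and the domain over RUNX1 starts within the gene. The right borders at RUNX3, also farther out in siANP32B, lie beyond the map.

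RUNX1 was covered from its internal start outward, and hardly at all over the rest. RUNX1 (chr21:34787801-35049302, 262 kb, read from right to left) was covered over 59.0% and 61.7% in siANP32B and 61.7% and 59.4% in siControl libraries, or 60.3% ± 1.89 against 60.5% ± 1.62 (SD, n = 2 each). The 161 kb between the outer and the internal start were covered over 96.1% and 100% in siANP32B and 100% and 96.3% in siControl libraries. The 101 kb from the internal start to the gene end, known to hold the exons of the DNA-binding Runt domain, were covered over 0% and 0.693% in siANP32B and 0.693% in both siControl libraries. The border lay 0.698 kb from the internal CpG-rich stretch printed above in siANP32B replicate 2 and both siControl libraries and 6.30 kb from it, on the covered side, in siANP32B replicate 1. The border thus stood at the same kilobase in 3 of the 4 libraries.

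Inside the covered part of RUNX1, the level was lower in 1 of 2 tested regions. The 33 kb region near the outer start (35009001 to 35042000) had, in the authors' deposited table, a log2 fold of -0.65 (FDR 0.00385), with 11 of 18 windows down. The 50 kb region nearer to the internal start (34895001 to 34945000) had a log2 fold of -0.60 in the authors' deposited table but was not called (FDR 0.0941), and none of its 40 windows was counted as down. The folds are close and no standard error is given, so a difference between these regions is not shown. Window coverage of RUNX1 was 54.6% and 60.7% in siANP32B and 61.8% and 56.8% in siControl libraries, which overlap (difference -1.66 points, two-sided exact permutation p = 0.667, n = 2 libraries per group).

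RUNX3 differed from RUNX1 in that the domain ran over both of its starts and over the rest of the gene. RUNX3 (chr1:24899511-24965138, 65.6 kb, read from right to left) was covered over 89.3% and 100% in siANP32B and 100% and 89.3% in siControl libraries, a mean of 94.7% ± 7.54 in each group (SD, n = 2 each). The gap in the domain lay in a different place in each group: between the starts in siANP32B replicate 1 (79.9% of that part covered) and between the internal start and the gene end in siControl replicate 2 (77.2% covered). In siANP32B replicate 2, a domain of 368 kb took in the gene. In siControl replicate 1 the domain measured 206 kb. The right border lay at 25108000 and 25218000 in siANP32B and at 25048000 and 25042000 in siControl libraries. The groups did not overlap, with a mean shift of 118 kb to the right in siANP32B. The siANP32B replicates lay farther from each other than replicate 1 did from either siControl library. Since both flanks were nearly full, window coverage was 95.5% and 99.7% in siANP32B and 100% and 95.5% in siControl libraries (difference -0.148 points, two-sided exact permutation p = 1.00, n = 2 libraries per group). Without domains scored below the median of the 4 lists together, the RUNX3 body was covered over 89.3% and 0% in siANP32B and 100% and 89.3% in siControl libraries, and the difference was -50.0 points for body and window alike. With the 5553 best-scored domains of each library, the difference was 0 for the body and -0.148 points for the window.

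The RUNX3 window held 3 tested regions, all called lower. In the authors' deposited table, the 18 kb region wholly inside the gene and between its starts (24938001 to 24956000) had a log2 fold of -0.84 (FDR 1.12e-04), the lowest of the 10 regions, leaving 56.0% of the siControl level in its representative window, with 9 of 9 windows down. Of the 4474 regions in the authors' deposited table, 15.6% had a lower fold. A 15 kb region past the gene end (24865001 to 24880000) had -0.69 (FDR 0.00255, 4 of 4 windows down) and a 39 kb region before the outer start (25002001 to 25041000) -0.61 (FDR 0.0120, 4 of 6 windows down) in the authors' deposited table. The 18 kb region was still in domains over 88.9% and 100% of its length in siANP32B and 100% in both siControl libraries.

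SPI1 was covered in full, by domains that scored low in their lists in 3 of the 4 libraries. SPI1 (chr11:47354860-47378547, 23.7 kb) lay in domains of 75 and 72 kb in siANP32B and 81 and 74 kb in siControl libraries. Their scores stood at percentiles 19.3 and 1.77 of their lists in siANP32B and at percentiles 60.5 and 9.39 in siControl libraries, the lowest among the 7 loci in each library. When the 5553 best-scored domains of each library were kept, the SPI1 body was covered over 0% in both siANP32B libraries and over 100% and 0% in siControl libraries, so the full coverage rests on low-scored domains in all libraries but siControl replicate 1. The left border lay in MYBPC3, a cardiac sarcomere gene that was covered over 87.8% and 78.4% in siANP32B and 83.1% in both siControl libraries. The right border lay near SLC39A13, a zinc transporter gene, covered over 18.7% and 7.86% in siANP32B and 94.6% and 18.7% in siControl libraries. SPI1 had no tested region in its window, so a change in level was not analysed there. Window coverage was 62.7% and 58.2% in siANP32B and 65.5% and 59.8% in siControl libraries (difference -2.20 points, two-sided exact permutation p = 0.667, n = 2 libraries per group). Without domains scored below the median of the 4 lists together, the window difference was -31.7 points.

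Across the 10 windows, extent and level did not move alike. A window was more covered in both siANP32B than in both siControl libraries for 3 genes (CD4, CD8A and CD8B, the last 2 from overlapping windows), against a background of 18.8% of coding genes, and less covered for 0, against 7.11%. The other 7 overlapped. These counts lean on single libraries: without siANP32B replicate 2, 7 windows were more and 1 less covered, without siControl replicate 2, 6 were more and 3 less covered, and without siANP32B replicate 1, 2 were less covered. A tested region lay in the window of 9 of 10 genes (background 30.1%), a lower one in that of 8 (background 19.4%) and a higher one in that of 0 (background 1.23%). Genes without a tested region could not be called: of 20033 coding genes, 6026 had a tested region and 3889 a lower one. CD3D, CD3E and CD3G share a region and CD8A and CD8B another, so the 8 genes rest on 5 loci.

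The windows of these genes hold, in the authors' deposited table, 10 distinct regions, of which 7 were lower (background 58.4% of all regions), 0 higher (background 3.82%) and 3 not called at a false discovery rate of 0.05. At an unadjusted p of 0.05 from the same table, made with edgeR per the submitters' processing notes, 0 were likewise higher. All 10 folds were below 0, so this is no separate check. The share of lower regions was therefore not far from that of the whole table. Their log2 folds in the authors' deposited table ran from -0.84 to -0.27 with a median of -0.63, against a median of -0.54 over all 4474 regions (interquartile range -0.74 to -0.29). The 7 lower ones had a median of -0.67, against -0.70 over all lower regions of the authors' deposited table. The table does not name its order of groups; its sign was taken as siANP32B over siControl, since 99.4% of the regions with positive calls were in domains in each siANP32B library, against 88.3% and 80.7% in siControl libraries. Since folds centred on the median of all regions have a median of -0.09 at these loci, the direction of fall is that of the table as a whole, and the scaling between libraries is not stated. Domains as a whole were longer in siANP32B, with a median of 47 and 48 kb against 38 and 39 kb in siControl libraries.

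**Figure D3:**
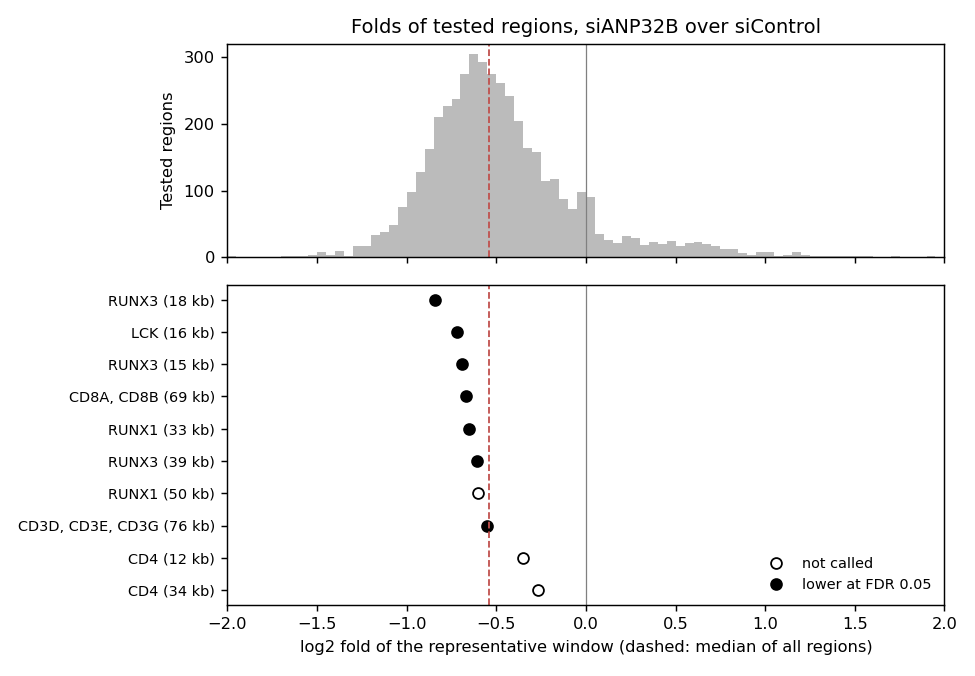
Log2 fold of the representative window, siANP32B over siControl, in the authors' deposited table for all 4474 regions (histogram, top) and for the 10 regions in windows of the blood lineage genes (points, bottom; filled where lower at a false discovery rate of 0.05). All 10 points lie left of 0, between -0.84 and -0.27, and 8 lie left of the dashed median of all regions at -0.54.

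Many borders of these domains lay near an end of a coding gene, either a neighbour or, at CD4, LCK and the CD8 genes in some libraries, the blood lineage gene itself. Of the 14 outer borders at the 7 loci, 8 and 9 in siANP32B and 10 and 8 in siControl libraries were within 5 kb of an end of a coding gene. The same held for 27.3% and 28.6% of all domain borders in siANP32B and for 29.8% and 26.2% in siControl libraries. The median distance was 3.12 and 3.75 kb in siANP32B and 2.06 and 4.61 kb in siControl libraries at these loci, against 17.0 and 18 kb in siANP32B and 16.7 and 20.6 kb in siControl libraries for all borders. The RUNX1 borders, the right borders of the CD8 domain and most borders on either side at RUNX3 were farther than 5 kb from any such end. So were the left borders at LCK and the CD8 genes and the right border at CD4, in 1 library each. The loci differ from most domains in that each holds a gene by choice, so the closeness is a description. Of 25 other coding genes in the windows, 13 were covered over 0% and 19 over less than 50% of the body in the 4 libraries, and 4 (PTMS, LAG3, FAM167B and MYBPC3) over at least 50% in each. Over all coding genes the median body was covered over 0% in each library. At least 50% was covered for 17.2% of them in both siANP32B and 13.7% in both siControl libraries. The neighbours are thus not shown to differ from coding genes as a whole. Among the neighbours at 0% were HDAC1, TPI1, USP5 and ATP5MG, which encode a histone deacetylase, a glycolytic enzyme, a deubiquitinase and a subunit of ATP synthase. GNB3 and DCDC2B were at 0% as well. Expression of the neighbours was not measured, so a link of coverage to expression was not tested.

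The share of further blood genes in domains lay between that of the 10 genes and that of all coding genes. Over 91 further genes of blood lineages, 36 (39.6%) were covered over at least 50% in both siANP32B and 25 (27.5%) in both siControl libraries. By list, 9 of 18 further T cell receptor and signalling genes were covered in both siANP32B and 4 in both siControl libraries, and 12 and 9 of 20 myeloid genes. B cell genes went the other way, with 4 of 14 in both siANP32B and 6 in both siControl libraries. Of 13 lymphoid transcription factor genes, 4 were covered in both siANP32B and 2 in both siControl libraries, of 19 stem cell, erythroid and megakaryocyte genes 6 and 3, and of 7 further RUNX and ETS factor and partner genes 1 and 1. Of 19 hepatocyte genes, a list for the cells' own lineage, 9 were covered in both siANP32B and 11 in both siControl libraries. Differences between these counts were not tested.

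**Figure D4:**
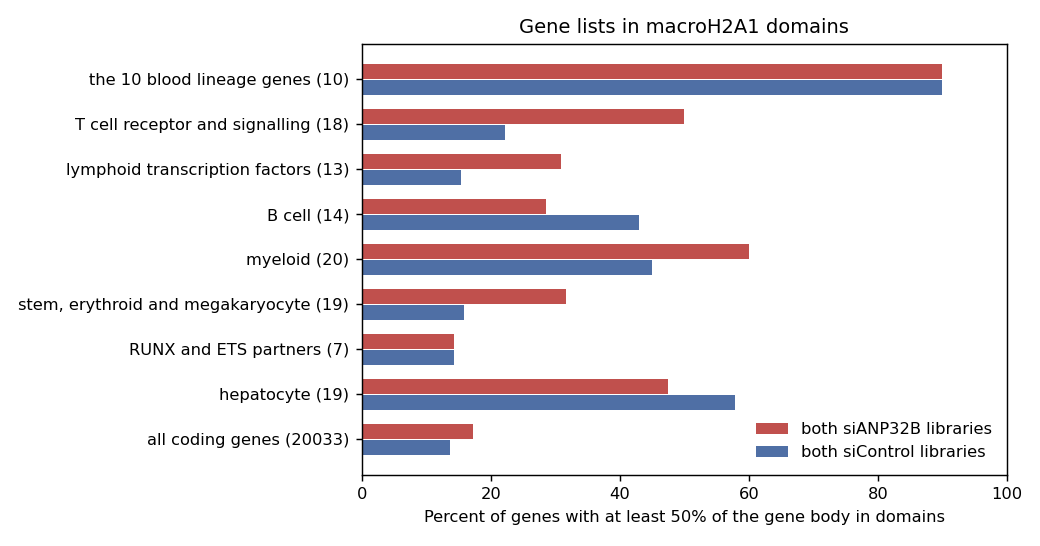
Percent of the genes of each list (number of genes in brackets) with at least 50% of the gene body in domains of both libraries of a group, siANP32B above siControl. The 10 blood lineage genes stand highest, with 9 of 10 in both groups, the other blood lists between 14.3% and 60.0%, hepatocyte genes at 47.4% in siANP32B and 57.9% in siControl, and all coding genes at 17.2% and 13.7%. The 10 genes and the lists were chosen with earlier results of these data known.

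Over the 91 further blood genes, lower regions were about as common as over coding genes as a whole. A tested region lay in the window of 35 genes and a lower one in that of 20 (22%, against 19.4% of all coding genes), and none had a higher one. By list, a lower region was found for 1 of 18 T cell receptor and signalling genes (5.56%) and, at the other end, for 6 of 14 B cell genes (42.9%). A tested region lay in the window of 3 of these T cell genes and of 8 of these B cell genes. Genes without a tested region could not be called, so the 2 percentages do not compare a response. Differences between lists were not tested. In the authors' deposited table, CD79B, a chain of the B cell receptor, had a region with a log2 fold of -0.90 (FDR 2.62e-06), and EPOR, the erythropoietin receptor, one of -0.86 (FDR 9.59e-06), both beside rather than over the gene. POU2AF1, a B cell coactivator, had -0.81 (FDR 5.49e-05) and ELANE, neutrophil elastase, -0.71 (FDR 5.22e-04) in the authors' deposited table, in regions that overlap the genes. TCF7 (-0.80, FDR 0.00123) and ID3 (-0.76, FDR 5.44e-04), regulators of T cell development, SPIC (-0.74, FDR 0.00188), a close relative of SPI1, and GATA2 (-0.70, FDR 0.00129), a stem cell factor, had lower regions beside the gene in the authors' deposited table. UBASH3A, which encodes a damper of T cell receptor signalling, had -0.69 (FDR 0.00341) in the authors' deposited table. This 14 kb region overlaps the gene by only 0.0990 kb.

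RUNX2, the bone-forming relative of RUNX1 and RUNX3, had a lower region of 29 kb wholly inside the gene, with a log2 fold of -0.73 (FDR 7.23e-04) in the authors' deposited table. RUNX1, RUNX2 and RUNX3 each had at least 1 lower region within the span. That is a count of genes, whereas the 58.4% of all tested regions that were lower is a share of regions, so they do not compare directly. A further region within RUNX1 was not called. FLI1, an ETS factor gene, had -0.35 (FDR 0.0953) beside it in the authors' deposited table, which was not called. RUNX2 and FLI1 were named for the smallest p on their list, so a contrast of RUNX with ETS genes is not shown. CD28, a T cell costimulatory receptor, was the exception in direction: its 80 kb region had a log2 fold of 0.51 (FDR 0.0331) and was called mixed in the authors' deposited table. The liver factors CEBPA (-0.96, FDR 2.50e-06) and HNF4A (-0.94, FDR 1.04e-06) had lower regions beside the gene in the authors' deposited table. They were named for the smallest p on the hepatocyte list, as CD79B (-0.90) and EPOR (-0.86) were on theirs. Folds picked in this way do not compare the lists with the 10 blood lineage genes.

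Among the blood genes whose window coverage was most like the median of the 10 were CSF1R, CD14, VPREB1 and SPIB, by the mean absolute difference over the 4 libraries. CSF1R, the receptor of macrophage growth factor, differed by 2.33 points, with 59.6% in both siANP32B libraries and 60.8% and 57.7% in siControl libraries. CD14, a monocyte receptor for bacterial lipid, differed by 4.09 points, VPREB1, part of the surrogate light chain, by 4.85, and SPIB, the other close relative of SPI1 on these lists, by 7.16. The last of these had 49.2% and 54.6% in siANP32B and 55.5% and 59.0% in siControl libraries.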

How the data were processed

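For the 4 anti-macroH2A1 libraries the authors deposited a list of domains each, with a score per domain from their caller, which served only to rank or filter domains within a list. The submitters' processing notes name the build hg38 and, with no version, Bowtie2, Trim Galore, deepTools, SAMtools, edgeR and SICER. The control library and the scaling between libraries are not stated in the labels or headers. Per the file headers, the deposited table of 4474 regions holds a p-value, a false discovery rate and the fold of a representative window. The authors' deposited fold was taken to be log2, as edgeR writes it; adjusting its p-values by Benjamini-Hochberg gave the deposited false discovery rates (largest difference 1.11e-15). The authors' deposited table has no values per library, so its tests were taken as deposited and no count test was made; the number of its columns of values per sample was 0. Read depth is unknown, so no interval is given.

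Gene spans came from RefSeq GRCh38.p14, the assembly of hg38, without exons. Coverage is the percent of bases of a span in domains, compared between groups by a two-sided exact permutation test over libraries. A region belonged to a gene if at least 1 base lay in its window, and was called at a false discovery rate of 0.05. Promoter letters and coverage were computed in Python 3.11.15 with numpy 2.4.6 and pandas 2.3.3. Coverage was tested on simulated domains and the permutation test on a fixed example. The 10 genes and the wider gene lists were chosen with earlier results of these data known. The text names the 10 genes, coding neighbours in a window, the 5 wider-list genes with window coverage nearest to the median of the 10 (1 of which is not reported here), and per wider list the 2 genes with the smallest p in their window. Alternatives were stricter domain sets, other flanks, thresholds and overlaps, leaving out each library, and folds centred on their median.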

Additional observations from a re-analysis of the deposited data

How the results depend on the processing

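Of 160 recomputed differences in coverage (bodies and windows of the 10 genes), 15 turned sign, all small in the first place or under a score limit. With domains at or above the median score of the 4 lists together (81.1), the window difference was -15.9 points at CD8A, -31.7 at CD8B and -16.3 at LCK, with the sign turned, and -50.0 at RUNX3 and -31.7 at SPI1, with the sign kept; 5 genes rather than 9 were covered in both siANP32B libraries (8 in both siControl libraries), and 1 window rather than 3 was more covered in siANP32B. The caller's scores were lower in siANP32B libraries (median 70.1 and 67.5) than in siControl libraries (88.9 and 97.7), so that a common limit keeps fewer of their domains. Among domains under the limit were those over CD8 in siANP32B replicate 1 (80.8) and over LCK (79.5) and RUNX3 (74.1) in siANP32B replicate 2. With the 5553 best-scored domains of each library, the window differences at CD8A, CD8B, LCK and RUNX3 kept their first values (17.4, 14.7, 1.48 and -0.148 points). That at SPI1 was again -31.7. Then 8 genes were covered in both libraries of each group. With flanks of 10 kb the difference at LCK was -5.22 points, and 1 window was less covered in both siANP32B libraries. With flanks of 100 kb it was 1.88 points at RUNX3 and 1.34 at SPI1. The cause of the lower scores and of the changes with flanks was not tested.

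Leaving out each library in turn, the difference ranged from -1.53 to 1.15 points for the RUNX1 body and, for windows, from -2.22 to 5.19 at LCK, -4.73 to 1.41 at RUNX1, -2.41 to 2.11 at RUNX3 and -5.03 to 0.625 at SPI1. The number of windows more covered in siANP32B ranged from 3 to 7 (6 without siControl replicate 2 and 7 without siANP32B replicate 2), and that of windows less covered from 0 to 3. The CD4, CD8A and CD8B windows stayed higher in siANP32B whichever library was left out. Their groups did not overlap, so this had to follow and is no check of the difference. Libraries could not be left out of the authors' deposited table.

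With a replicate block (differences within replicate number) the differences kept their values, 58.4 points for the CD8A body, and the smallest p that 2 pairs allow is 0.5. Replicate numbers are not said to mark a shared culture, and deviations of same-numbered libraries over coding gene windows had a correlation of 0.140, from 2 pairs only.

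In the authors' deposited table, 5 of the 10 regions were lower and 5 not called at a false discovery rate of 0.01, where 42.5% of all regions were lower. The median log2 fold of the 10 regions was -0.09 with folds centred on the median of all regions. It lay between -0.65 and -0.61 under the other alternatives, which were other flanks, a stricter overlap and the loss of chromosome 2, gained in HepG2. Read depth is unknown, so how it limits these values was not tested.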
